A study of Mus musculus with 8 samples.

Results

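The 10 genes described here encode contractile and calcium-handling proteins of slow-twitch muscle fibres: Myh7, Myl2, Myl3, Tnnt1, Tnni1, Tnnc1, Tpm3, Atp2a2, Casq2 and Mb. They were chosen by name, and all non-control array probes carrying one of these names were taken. This gave 17 probes of the 41174 on the array, and 10 of the 16016 genes tested. Of the 17 probes, 16 passed the filter on dim probes, and all 10 genes were represented. RNA came from the tibialis anterior, a leg muscle made mostly of fast fibres, of 8 males on a C57BL/6 background, all 8 weeks old. The Prep1deltaSM genotype (n = 4) had Prep1 ablated in skeletal muscle, and Prep1f/+ mice (n = 4) were labelled as carrying a floxed Prep1 allele. Prep1, listed on the array as Pknox1, is a TALE-class transcription factor with a homeodomain. The promoter driving the deletion was not given in the sources used here. Each mouse gave 1 single-colour array, and mice are called by genotype and replicate number below. The numbers follow deposit order and do not pair mice.

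Muscle fibres of different speeds build the sarcomere from different members of the same gene families. Slow fibres use the Myh7 heavy chain, their own light chains and troponins, the Atp2a2 calcium pump and the oxygen store myoglobin, and they resist fatigue. In the mouse tibialis anterior slow fibres are rare, while the heart uses several of the same genes, among them Myh7, Myl2, Myl3, Tnnc1, Atp2a2 and Casq2.

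Values are log2 signal relative to the 75th percentile of the same array, so a level of 0 lies at that percentile, and differences are Prep1deltaSM minus Prep1f/+ on that log2 scale. Of 43379 non-control spots, 23787 to 27123 per array were well above background. Precision is limited by having 4 arrays per genotype. Pknox1 measured -1.84, -2.08, -2.28 and -1.96 in Prep1deltaSM muscles 1 to 4, against -0.09, -0.31, -0.21 and -0.51 in Prep1f/+ muscles 1 to 4. It fell by 1.76 ± 0.13 (SE) on the log2 scale, with an adjusted p of 0.0072 from limma, and was the only gene past the threshold of 0.05. That call was lost with slide as a block (limma adjusted p = 0.062), without Prep1f/+ muscle 2 (0.0656) or 3 (0.0641) and without Prep1deltaSM muscle 2 (0.0738), while the difference was -1.74 to -1.77 in these 4 fits. The position of its probe relative to the deletion was not determined here. Prep1f/+ muscles 1 and 4 stood apart on the first principal component, which held 24.4% of the variance among arrays. With only Prep1f/+ muscles 2 and 3 kept, neither Pknox1 nor any slow fibre gene passed in limma, and the median difference of the slow fibre genes was -0.55. Skeletal muscle markers Acta1, Ckm, Des, Ttn and Neb were high in every muscle, with list means of 8.57 to 8.69 in Prep1deltaSM and 8.51 to 8.75 in Prep1f/+ muscles.

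None of the 10 slow fibre genes passed the adjusted threshold in limma, where the share called over all genes was 0.00624%. At an unadjusted p under 0.05, 1 of the 10 passed, against 15.9% of all genes. All 10 differences were below 0, as were 62.7% of all genes, but Myl3 and Casq2 were above 0 with quantile normalization. Their median was -0.42, beside -0.07 over all genes, and 9 of the 10 lay below that all-gene median. Without Prep1f/+ muscle 3 their median was -0.17. No gene of the 10 had groups that did not overlap, against 10.5% of all genes. The spread among muscles of one genotype was wide for most of them. Of the 10, 6 were among the 10% of genes with the largest spread within genotypes.

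**Figure D1:**
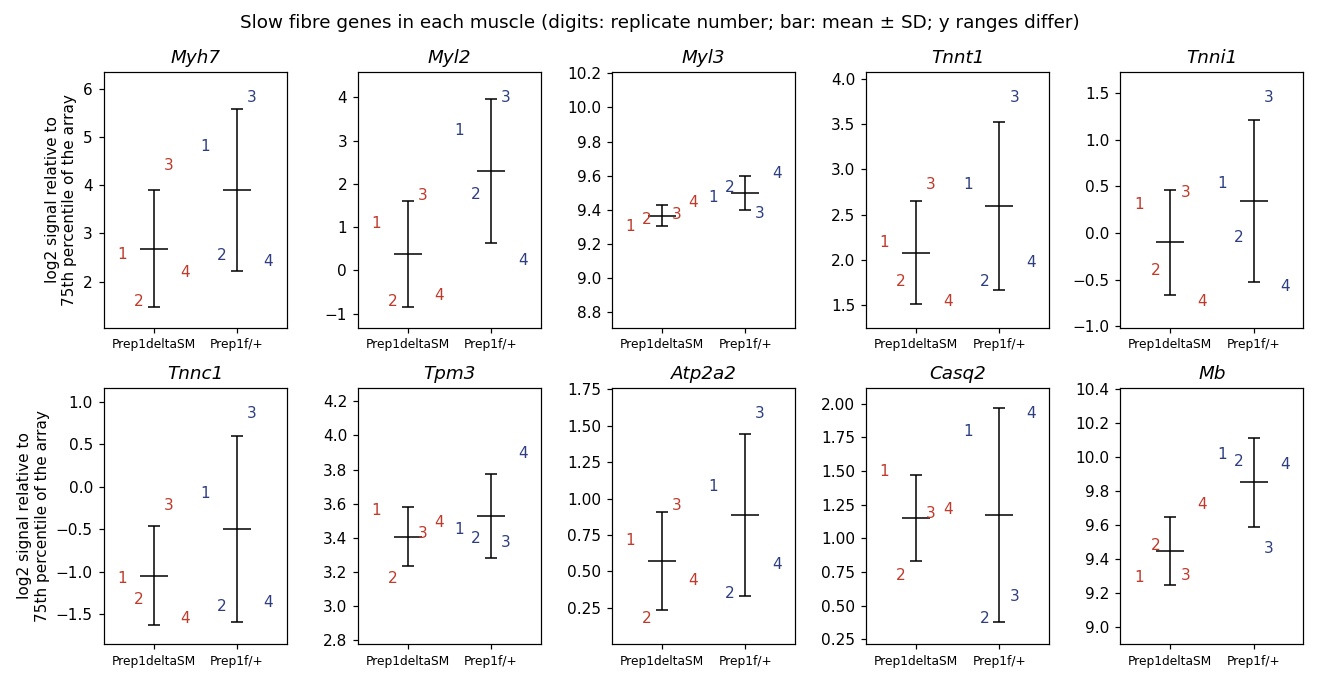
Log2 signal relative to the 75th percentile of the array (y axis, a separate range in each panel) of the 10 genes in Prep1deltaSM and Prep1f/+ muscles. Digits are replicate numbers and bars are mean ± SD (n = 4 each). Prep1f/+ muscle 3 is highest in 6 panels, and the genotypes overlap in all 10.

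Myh7 encodes the slow myosin heavy chain, the motor of slow fibres. It measured 2.57, 1.58, 4.42 and 2.18 in Prep1deltaSM muscles 1 to 4, against 4.80, 2.55, 5.83 and 2.42 in Prep1f/+ muscles 1 to 4. Muscles 3 and 1 of Prep1f/+ and muscle 3 of Prep1deltaSM stood above the other 5, so the genotypes overlapped. The signal spanned 19.1-fold over the 8 muscles, 7.18-fold within Prep1deltaSM and 10.7-fold within Prep1f/+. The difference was -1.21 ± 0.88 (SE), with a 95% confidence interval of -3.23 to 0.81 and an adjusted p of 0.521 in limma. An exact two-sided permutation test gave p = 0.229. Without Prep1f/+ muscle 3 the difference was -0.57. In this whole-muscle RNA, fewer slow fibres and less RNA per slow fibre cannot be told apart. The spread of Myh7 within genotypes exceeded that of 99.8% of genes. Both Myh7 probes lie on chromosome 14 of mm9, on the minus strand, at 55589526 to 55589585 and 55589531 to 55589590. They share 55 bases and gave differences of -1.21 and -1.20, so they are not separate evidence.

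Every slide carried a Prep1deltaSM and a Prep1f/+ array, and there were 4 slides. Within slides 1 to 4 the Myh7 difference was 0.02, -4.25, -2.62 and 2.003, and the Myl2 difference was -0.68, -4.72, -3.80 and 1.50. The sign thus differed between slides for both genes. Fitting slide as a block gave an adjusted p in limma of 0.576 for Myh7, with 0.361 to 0.759 over all alternatives, and 0.412 for Myl2, with 0.206 to 0.572.

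Myl2 encodes the slow regulatory light chain, which binds the neck of the myosin head. It measured 1.07, -0.73, 1.73 and -0.57 in Prep1deltaSM muscles 1 to 4, against 3.23, 1.75, 3.99 and 0.24 in Prep1f/+ muscles 1 to 4. As for Myh7, Prep1f/+ muscles 3 and 1 were highest, and Prep1f/+ muscle 4 lay inside the Prep1deltaSM range. The signal spanned 26.4-fold over all muscles, the widest range of the 10 genes. The difference of -1.93 ± 0.87 (SE) was the largest in size of the 10, with an interval of -3.92 to 0.07 and an adjusted p of 0.328 in limma. The exact permutation test gave p = 0.114.

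Myl3 encodes the slow essential light chain, and its 2 probes differed in behaviour. Their sequences are shown because the result for this gene turns on which probe is read. All letters are in lower case, 5′ to 3′, as in the array files.
A_51_P177210: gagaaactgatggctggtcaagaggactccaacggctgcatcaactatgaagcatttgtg
A_51_P434910: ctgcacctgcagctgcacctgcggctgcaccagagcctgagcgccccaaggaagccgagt
Both map to the plus strand of chromosome 9 in mm9, A_51_P177210 at 110671632 to 110671926 and A_51_P434910 at 110666325 to 110666384. The longest run of bases they share is 8.

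The brighter probe of Myl3, A_51_P177210, represented the gene. It measured 9.30, 9.34, 9.37 and 9.44 in Prep1deltaSM muscles 1 to 4, against 9.47, 9.53, 9.38 and 9.62 in Prep1f/+ muscles 1 to 4. These levels spanned 1.24-fold, and the genotypes overlapped only through Prep1f/+ muscle 3. The difference was -0.13 ± 0.08 (SE), with an interval of -0.32 to 0.06 and an adjusted p of 0.460 in limma. Probe A_51_P434910 of Myl3 measured -0.33, -1.03, 0.71 and 0.23 in Prep1deltaSM muscles 1 to 4, against 2.06, 0.88, 0.37 and 1.09 in Prep1f/+ muscles 1 to 4. Its signal spanned 8.50-fold, with Prep1f/+ muscle 1 highest and Prep1deltaSM muscle 2 lowest, and the genotypes overlapped. Its difference was -1.20 ± 0.44 (SE), with an interval of -2.20 to -0.20. In the limma fit of each probe as its own row, the adjusted p was 0.214. It was 1 of 2 kept probes of these genes with an unadjusted p under 0.05, where 17.8% of all kept probes were. Averaging both probes moved the Myl3 difference to -0.67, with an adjusted p of 0.246 in limma, the lowest over its alternatives, which reached 0.983.

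**Figure D2:**
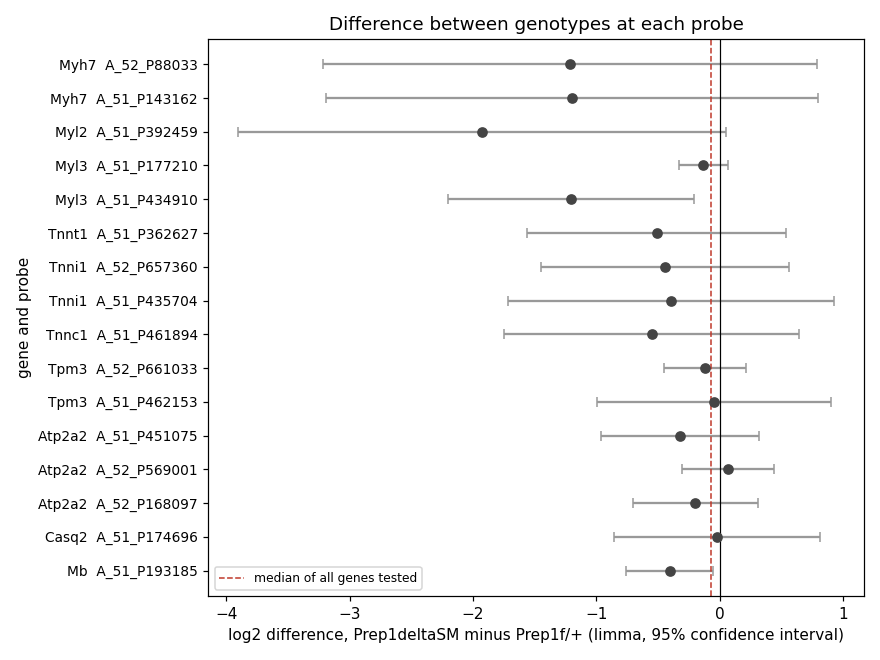
Log2 difference, Prep1deltaSM minus Prep1f/+ (x axis), for the 16 kept probes of the 10 genes (y axis). Points are limma estimates, bars are 95% confidence intervals and the dashed line is the median of all genes, -0.07. Of the 16 estimates, 15 lie below 0, as do 54.1% of all kept probes, and the widest intervals are those of Myh7 and Myl2.

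The slow troponins form the calcium switch of the thin filament: Tnnt1 anchors the complex to tropomyosin, Tnni1 inhibits contraction and Tnnc1 binds calcium. Tnnt1 measured 2.20, 1.77, 2.83 and 1.54 in Prep1deltaSM muscles 1 to 4, against 2.84, 1.77, 3.79 and 1.97 in Prep1f/+ muscles 1 to 4. Tnni1 measured 0.31, -0.40, 0.44 and -0.74 in Prep1deltaSM muscles 1 to 4, against 0.53, -0.05, 1.45 and -0.57 in Prep1f/+ muscles 1 to 4. Tnnc1 measured -1.08, -1.33, -0.23 and -1.55 in Prep1deltaSM muscles 1 to 4, against -0.08, -1.41, 0.86 and -1.36 in Prep1f/+ muscles 1 to 4. All 3 genes were highest in Prep1f/+ muscle 3, next in Prep1f/+ muscle 1 and then in Prep1deltaSM muscle 3, and lowest in Prep1deltaSM muscle 4. Their signals spanned 4.77-fold, 4.58-fold and 5.33-fold in the order named. The difference of Tnnt1 was -0.51 ± 0.46 (SE), with an adjusted p of 0.608 in limma. For Tnni1 it was -0.44 ± 0.44 (SE), with an adjusted p of 0.641 in limma, and its other probe gave -0.40. For Tnnc1 it was -0.55 ± 0.53 (SE), with an adjusted p of 0.628 in limma. These differences were close to their SE and rested largely on 1 muscle: without Prep1f/+ muscle 3 they were -0.11 for Tnnt1, -0.07 for Tnni1 and -0.10 for Tnnc1.

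Tpm3 encodes slow tropomyosin, which lies along actin and is also made in non-muscle forms. Its brighter probe, A_52_P661033, measured 3.56, 3.16, 3.42 and 3.49 in Prep1deltaSM muscles 1 to 4, against 3.45, 3.39, 3.37 and 3.90 in Prep1f/+ muscles 1 to 4. The genotypes overlapped, with Prep1f/+ muscle 4 highest, and the range was 1.67-fold. The other Tpm3 probe, A_51_P462153, measured -0.60, -0.50, -0.05 and -0.84 in Prep1deltaSM muscles 1 to 4, against 0.06, -1.27, 0.58 and -1.19 in Prep1f/+ muscles 1 to 4. That probe spanned 3.62-fold and placed the same muscles on top as the troponins did, with Prep1f/+ muscles 3 and 1 ahead of Prep1deltaSM muscle 3. The Tpm3 difference was -0.12 ± 0.14 (SE) at the brighter probe and -0.05 ± 0.42 (SE) at the other, and the adjusted p of the gene was 0.704 in limma. At the brighter probe it was -0.04 without Prep1deltaSM muscle 2 and 0.0027 without Prep1f/+ muscle 4.

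Atp2a2 encodes SERCA2, the pump that returns calcium to the sarcoplasmic reticulum in slow and heart muscle. Its brightest probe, A_51_P451075, measured 0.72, 0.18, 0.95 and 0.44 in Prep1deltaSM muscles 1 to 4, against 1.08, 0.35, 1.58 and 0.55 in Prep1f/+ muscles 1 to 4. Prep1f/+ muscles 3 and 1 and Prep1deltaSM muscle 3 were again highest, over a 2.65-fold range, and the genotypes overlapped. The difference was -0.32 ± 0.28 (SE), with an adjusted p of 0.599 in limma. It was -0.09 without Prep1f/+ muscle 3 and -0.19 without Prep1deltaSM muscle 2. At A_52_P569001, annotated to another transcript variant of Atp2a2, the difference was 0.07 ± 0.16 (SE), and Prep1f/+ muscle 4 was highest. At A_52_P168097 it was -0.20 ± 0.22 (SE). The remaining Atp2a2 probe, A_52_P1156808, was well above background on 0 of 8 arrays.

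Casq2 encodes the calcium-storing calsequestrin of slow and heart muscle. It measured 1.49, 0.72, 1.19 and 1.21 in Prep1deltaSM muscles 1 to 4, against 1.79, 0.41, 0.57 and 1.93 in Prep1f/+ muscles 1 to 4. The Prep1f/+ muscles held both extremes, with muscles 4 and 1 highest and muscles 2 and 3 lowest of all 8. The difference was -0.02 ± 0.37 (SE), with an interval of -0.86 to 0.82 and an adjusted p of 0.984 in limma. Its sign changed with the scaling and with the muscles kept: it was 0.23 without Prep1f/+ muscle 4 and -0.22 without Prep1f/+ muscle 3. With only Prep1f/+ muscles 2 and 3 kept it was 0.67.

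Mb encodes myoglobin, which stores oxygen in oxidative fibres of both slow and fast type. It measured 9.29, 9.48, 9.30 and 9.72 in Prep1deltaSM muscles 1 to 4, against 10.02, 9.97, 9.46 and 9.96 in Prep1f/+ muscles 1 to 4. Muscles 1, 2 and 4 of Prep1f/+ lay above every Prep1deltaSM muscle, and Prep1f/+ muscle 3 lay within their range. The difference was -0.40 ± 0.15 (SE), or 1.32-fold lower, with an interval of -0.76 to -0.05. Its adjusted p in limma was 0.266, the smallest of the 10 genes, and the exact permutation test gave p = 0.0857. Within slides 1 to 4 the difference was -0.68, 0.02, -0.30 and -0.65.

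The same few muscles led most of the genes. Prep1f/+ muscle 3 was highest and Prep1f/+ muscle 1 next for 6 of the 10, namely Myh7, Myl2, Tnnt1, Tnni1, Tnnc1 and Atp2a2. That order held for 400 of the 16016 genes tested, or 2.5%. Prep1deltaSM muscle 3 ranked 3 for 5 of those 6 genes, an order held by 0.318% of all genes. These 2 orders were picked after the values were seen, and the shares are descriptions. Prep1deltaSM muscle 2 was lowest for 4 genes and Prep1deltaSM muscle 4 for 3. At their brightest probes, Mb, Myl3, Tpm3 and Casq2 did not follow this order. Prep1f/+ muscle 3 ranked 6th, 5th, 7th and 7th of 8 for them. For Tpm3 and Atp2a2 the order depended on the probe read. The other Tpm3 probe, A_51_P462153, had Prep1f/+ muscle 3 highest and muscle 1 next. Atp2a2 probes A_52_P569001 and A_52_P168097 had Prep1f/+ muscle 4 highest. Of the 16 kept probes, 9 had Prep1f/+ muscle 3 highest and muscle 1 next.

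**Figure D3:**
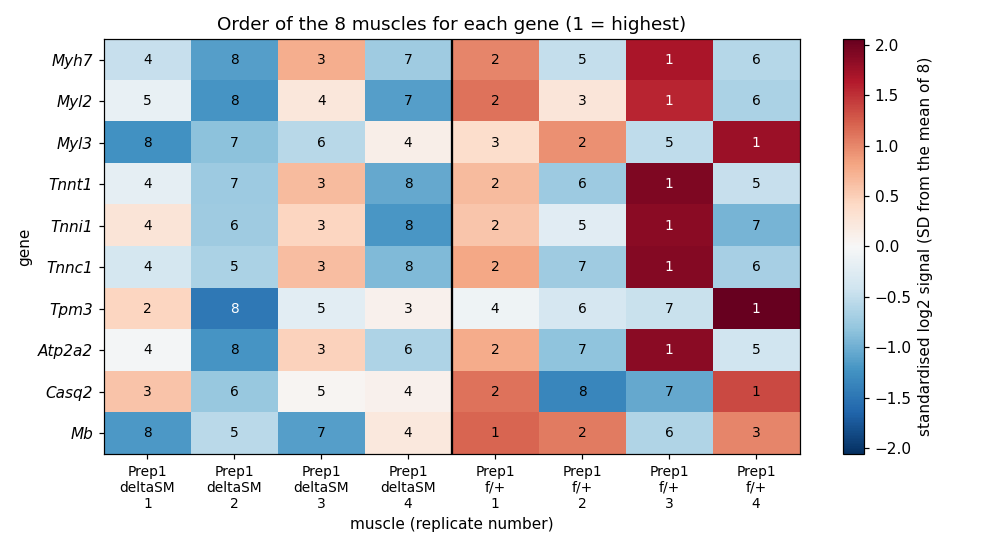
Rank of each of the 8 muscles (digits, 1 = highest) for each gene, with colour showing the log2 signal in SD from the mean of 8 muscles. Prep1deltaSM muscles stand left of the line and Prep1f/+ muscles right of it. Each gene is read at its brightest probe, and Prep1f/+ muscles 3 and 1 rank 1 and 2 for 6 genes.

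**Figure D4:**
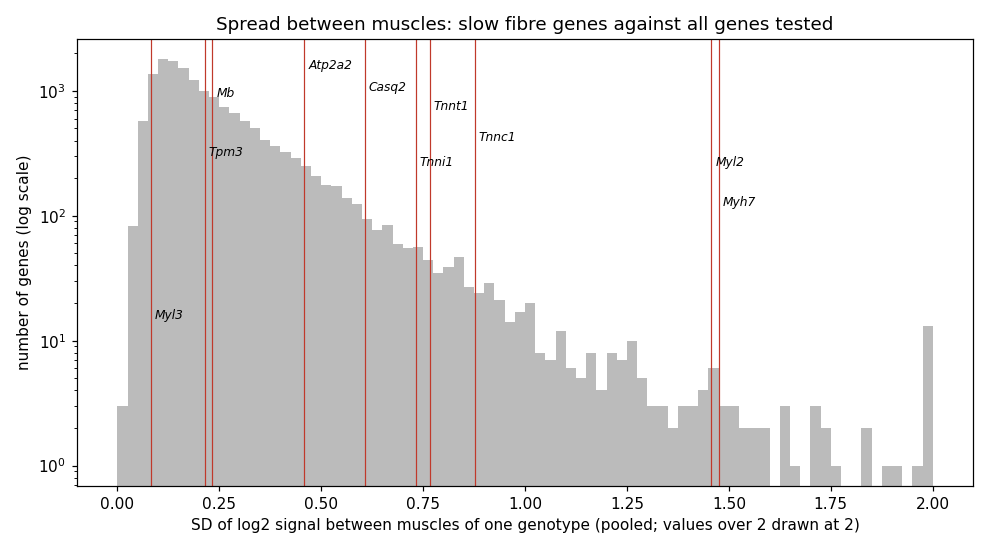
Number of genes (y axis, log scale) by SD of log2 signal among muscles of one genotype, pooled over both genotypes (x axis, values over 2 drawn at 2), for the 16016 genes tested. Red lines mark the 10 slow fibre genes. Each gene is read at its brightest probe, and Myh7 and Myl2 lie near the far end and Myl3 among the smallest. The other Myl3 probe, not drawn, had an SD of 0.75 in Prep1deltaSM and 0.71 in Prep1f/+ muscles.

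Several marker lists of other cell types also differed among muscles. All 5 leukocyte, 6 tendon and 5 tested adipocyte markers were lower in the Prep1deltaSM mean, with median differences of -0.48, -0.57 and -1.03. Of 6 fibroblast markers 5 were lower, with a median of -0.42. Over all genes 62.7% were lower, while all 3 erythroid and 4 of 5 Schwann cell markers were higher. At an unadjusted p under 0.05 in limma were 3 fibroblast, 2 leukocyte, 1 tendon and 0 adipocyte markers, against 15.9% of all genes. Of 6 smooth muscle markers 2 had such a p, and of 5 endothelium markers 1. No gene of these lists passed the adjusted threshold in limma. Fibroblast markers averaged 3.03 to 4.08 in Prep1deltaSM muscles and 3.53 to 4.05 in Prep1f/+ muscles, highest in Prep1deltaSM muscle 3. The leukocyte list mean was -1.60 to -0.72 in Prep1deltaSM muscles and -0.84 to -0.18 in Prep1f/+ muscles, highest in Prep1f/+ muscle 3. Tendon markers averaged 0.60 to 1.95 in Prep1deltaSM muscles and 1.51 to 2.05 in Prep1f/+ muscles, highest in Prep1f/+ muscle 4. The Schwann cell list mean was -0.81 to -0.61 in Prep1deltaSM muscles and -1.14 to -0.09 in Prep1f/+ muscles, highest in Prep1f/+ muscle 3. Adipocyte markers averaged -0.75 to 2.47 in Prep1deltaSM muscles and 0.64 to 2.59 in Prep1f/+ muscles, highest in Prep1f/+ muscle 3. Erythroid markers averaged 4.13 to 6.36 in Prep1deltaSM and 3.33 to 5.26 in Prep1f/+ muscles. The erythroid list was highest in Prep1deltaSM muscle 2 and lowest in Prep1f/+ muscle 3. Smooth muscle markers were highest in Prep1deltaSM muscle 4 and endothelium markers in Prep1f/+ muscle 1. Heart markers averaged -3.03 to -2.51 in Prep1deltaSM muscles and -2.91 to -2.50 in Prep1f/+ muscles, also highest in Prep1f/+ muscle 3. Of 7 heart markers 5 passed the filter on dim probes, while Myl7 and Ryr2 were well above background on 0 arrays. The part of these other cells in the slow fibre values was not tested.

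Each slow gene was also set against its fast counterpart within the same array, which removes the scaling of that array. Of 9 pairs, 7 had a lower slow-minus-fast value in Prep1deltaSM muscles, and the median difference over pairs was -0.38. None passed an exact two-sided permutation test: the smallest p was 0.114, for Myl2 minus Mylpf, and the smallest after adjustment over 9 pairs was 0.771. With 70 assignments of muscles the smallest possible p was 0.0286. Myl2 minus Mylpf differed by -2.08, with an interval of -4.51 to 0.35. Myh7 minus Myh4 differed by -1.13, with an interval of -3.88 to 1.61. Myl3 minus Myl1 differed by 0.04, with an interval of -0.14 to 0.22, and spanned only 1.20-fold over the 8 muscles. Both of these genes were read at their brightest probe. The other Myl3 probe, A_51_P434910, differed by -1.20 and spanned 8.50-fold, and the 2 kept Myl1 probes differed by -0.17 and 0.23. Prep1f/+ muscle 3 was highest in 6 of the pairs, and without it the median over pairs was 0.05.

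**Figure D5:**
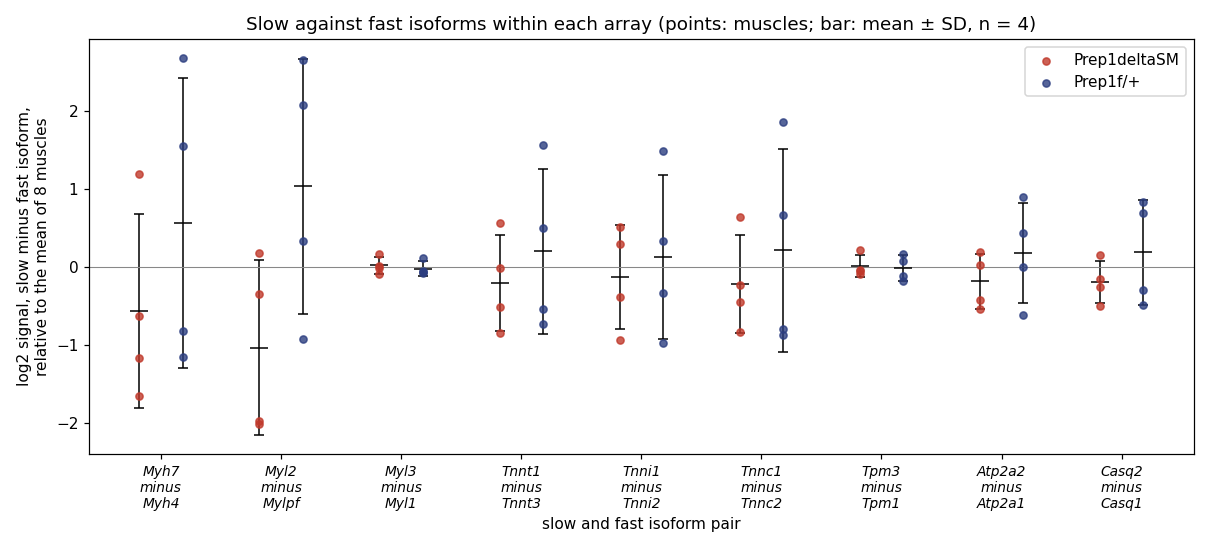
Log2 signal of the slow gene minus that of its fast counterpart on the same array, relative to the mean of 8 muscles (y axis), for 9 pairs (x axis), Prep1deltaSM in red and Prep1f/+ in blue. Points are muscles and bars are mean ± SD (n = 4). Each gene is read at its brightest probe. The groups overlap in every pair, and the Myl3 minus Myl1 and Tpm3 minus Tpm1 values lie closest together.

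Other genes of slow fibres, from a separate list of 12, had the same direction of difference but not the same order of muscles. Their list mean was highest in Prep1f/+ muscle 1 (5.94) and lowest in Prep1deltaSM muscle 3 (4.86). For the main group of slow fibre genes, the mean was highest in Prep1f/+ muscle 3 (4.03) and lowest in Prep1deltaSM muscle 2 (2.38). All 10 tested genes of the separate list were lower in the Prep1deltaSM mean, as were 62.7% of all genes. Their median difference was -0.36, and none passed the adjusted threshold in limma. That median was -0.20 without Prep1f/+ muscle 1, -0.21 without Prep1deltaSM muscle 2 and -0.20 with no filter on dim probes. Csrp3, a Z-disc protein, measured 3.63, 2.81, 2.43 and 4.35 in Prep1deltaSM muscles 1 to 4, against 6.78, 4.83, 3.94 and 3.54 in Prep1f/+ muscles 1 to 4. Its groups overlapped, its highest muscle was Prep1f/+ 1, and its difference was -1.47 ± 0.71 (SE), with an adjusted p of 0.353 in limma. Ldhb, the lactate dehydrogenase subunit of oxidative tissue, measured 5.49, 6.39, 5.48 and 6.12 in Prep1deltaSM muscles 1 to 4, against 6.42, 6.40, 6.70 and 6.46 in Prep1f/+ muscles 1 to 4. It was the only one of these 10 genes whose groups did not overlap, beside 10.5% of all genes, with a difference of -0.62 ± 0.21 (SE) and an adjusted p of 0.233 in limma. Myoz2 and Ankrd2 differed by -0.60 and -0.58, and the other kept probe of Myoz2 differed by -0.06.

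Fast fibre genes had a median difference of -0.09, which was 0.04 with quantile normalization. Of 16 genes, 12 were lower and 4 higher in the Prep1deltaSM mean and none passed the adjusted threshold in limma. Myh2, the heavy chain of fast oxidative fibres, measured 8.81, 8.81, 8.32 and 8.72 in Prep1deltaSM muscles 1 to 4, against 10.37, 10.33, 9.51 and 8.52 in Prep1f/+ muscles 1 to 4. Its groups overlapped through Prep1f/+ muscle 4, and its difference was -1.02 ± 0.39 (SE), with an adjusted p of 0.263 in limma. The 4 kept probes of Myh2 differed by -1.02 to -0.45. Casq1, the fast calsequestrin, had a difference of 0.36 ± 0.11 (SE), with an adjusted p of 0.204 in limma. Tnni2 and Myh1 differed by -0.18 each, but the other kept probe of Myh1 differed by 0.58.

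Of 23 regulators of fibre type, 10 were higher and 13 lower in the Prep1deltaSM mean, with a median of -0.08 that was 0.17 with probes averaged, and none passed the adjusted threshold in limma. Sox6, a repressor of slow fibre genes, measured 3.26, 3.41, 3.33 and 3.17 in Prep1deltaSM muscles 1 to 4, against 2.61, 3.15, 3.12 and 2.72 in Prep1f/+ muscles 1 to 4. The groups did not overlap, and the difference was 0.39 ± 0.14 (SE), with an adjusted p of 0.245 in limma. Groups also did not overlap for Mef2d and Nfatc3, as for 10.5% of all genes. The Nfatc3 difference was -0.31 at that probe and 0.09 at its other kept probe. Ppard, Rcan1 and Esrrg differed by 0.63, 0.40 and -0.36. Among 6 developmental fibre genes the median was -0.14, with -0.33 to 0.29 over the alternatives, and Actc1, Myh3, Myl4 and Myh8 differed by 0.39, -0.34, -0.29 and -0.15.

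The genes outside the group whose levels followed the mean standardised signal of the 10 genes most closely over the 8 arrays were Boc, Serp1, Nipsnap3b, Commd7, Zc3h7a, Spin4, Angptl4 and Sema3b. Pearson's r was 0.94 to 0.97 for these 8. They were the top of a ranking over 13554 genes on 8 arrays, and r is a description. Each gene was read at its brightest probe, for Myl3 A_51_P177210, and not every slow fibre gene followed that mean. Pearson's r with the mean of the other members was 0.05 for Mb, 0.07 for Myl3, 0.12 for Casq2 and 0.16 for Tpm3. It was 0.63 to 0.84 for Myh7, Myl2, Tnnt1, Tnni1, Tnnc1 and Atp2a2. Angptl4, a secreted inhibitor of lipoprotein lipase, had the widest range of the 8, 3.35-fold, and a difference of -0.97. It measured 0.15, -0.11, 1.06 and 0.24 in Prep1deltaSM muscles 1 to 4, against 1.58, 0.48, 1.64 and 1.54 in Prep1f/+ muscles 1 to 4, with the groups overlapping through Prep1f/+ muscle 2.

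Promoter windows of 300 bases were taken from RefSeq on GRCm38.p6, and 9 of the 10 genes matched, with 15 windows. TALE factors bind the half-site TGACAG, so this motif was searched on both strands. It was present in 3 of the 15 windows, of Myl2 and Tnnt1, against 19.2% of all 32851 promoter windows. The matches are shown with their surroundings, 5′ to 3′ on the strand of the gene, with the motif or its reverse complement in capitals.
Myl2, chr5:122092578-122092607, plus strand: ataaggactctgCTGTCAcctaacacccag
Myl2, chr5:122092996-122093025, plus strand: aaaccctctggaCTGTCAtggttccaagtt
Tnnt1, chr7:4516119-4516148, minus strand: tgttgaagccgaTGACAGgtgttggacccc
The E-box CANNTG, the site of myogenic factors, was in 15 of 15 windows, or 9 of 9 genes, and in 72.3% of all promoters. Some windows of Tnni1, Myh7 and Mb overlap, so the 15 windows are not independent. The MCAT motif CATTCC, the site of TEAD factors, was in 3 of 15 windows, of Myh7, Myl3 and Tnnc1, and in 14.7% of all promoters. A MEF2 site was in 1 window, of Casq2, and a CArG box in 1, of Myl3, against 3.19% and 1.63% of all promoters. A match describes letters in a window and not a bound site.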

How the data were processed

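Total RNA was labelled with Cy3, per the labels' protocols, and hybridised to single-colour Agilent arrays. Spot intensity was deposited as Feature Extraction output, version 10.5.1.1 per the file headers, with background subtracted; version 9.1 stands in the submitters' processing notes, so the version used is uncertain. A second deposited table of 32812 intensity rows came from the authors, and 26233 of its rows matched quantile-normalized scanner values within 0.1 log2 and served as an alternative. Here log2 of the deposited intensity was scaled by subtracting the log2 75th percentile over non-control spots of the array. Non-uniform spots, 0 to 11 per array, were left out and replicate spots averaged; saturation was not seen. A probe was kept if well above background on 4 or more arrays (24488 of 41174), and the brightest probe represented a gene. Genotypes were compared with limma 3.58.1 in R 4.3.3, Benjamini-Hochberg adjusted over 16016 genes. The fit was also run on simulated independent normal noise with known fold changes. That check does not speak to slides or to muscles that stand apart. Exact permutation tests were two-sided. P-values measure the spread between mice, 1 array each. All arrays were scanned on 1 day, and slide was run as a block. The members, lists, tests and rules for naming genes were chosen with earlier results of these data known. Genes named were the members, Pknox1, fast partners, the 4 largest differences per list and the 8 genes most like the members; Mef2d and Nfatc3 were named after their values were seen, 1 gene of the regulator list is not reported here, and the setting with only Prep1f/+ muscles 2 and 3 kept was added after seeing the data.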

Additional observations from a re-analysis of the deposited data

Results flagged for a closer look

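Single muscles stood apart from the other 3 of their genotype in 9 of 144 groups of 4 examined, where chance gives about 7.2. The gap to the nearest muscle, as a share of the group's range, is given for each, and all exceed Dixon's 95% critical value for 4 samples. Among the slow fibre genes, Tpm3 was highest in Prep1f/+ muscle 4 (0.857), at 3.90 against 3.37 to 3.45 in the other Prep1f/+ muscles. Mb was lowest in Prep1f/+ muscle 3 (0.888), at 9.46 against 9.96 to 10.02. Within pairs, Tpm3 minus Tpm1 was highest in Prep1deltaSM muscle 1 (0.848), and Myl3 minus Myl1 was highest in Prep1f/+ muscle 3 (0.839). Of other genes, Tnnc2 was highest in Prep1deltaSM muscle 4 (0.863), and both Spin4 (0.948) and Angptl4 (0.912) were lowest in Prep1f/+ muscle 2. The list mean of fibroblast markers was lowest in Prep1f/+ muscle 1 (0.9), and that of tendon markers was lowest in Prep1f/+ muscle 3 (0.893), at 1.51 against 1.99 to 2.05.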

How the results depend on the processing

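None of the 10 slow fibre genes was called under any of 18 alternatives, and their median difference was between -0.58 and -0.17. The number of genes called was 26 with normexp and quantile normalization, 0 with slide as a block, 0 with only Prep1f/+ muscles 2 and 3 kept, and 0 to 5 on leaving out each muscle in turn: 5 without Prep1deltaSM 4, and 0 without Prep1deltaSM 2, Prep1f/+ 2 or Prep1f/+ 3. Casq2 turned to 0.0175 with normexp and quantile normalization, 0.0199 with quantile normalization, 0.0200 with the authors' values and 0.67 with only Prep1f/+ muscles 2 and 3 kept, and ranged from -0.276 to 0.231 on leaving out each muscle. Myl3 turned to 0.0300 with normexp and quantile normalization and 0.0051 with quantile normalization. Atp2a2 turned to 0.0736 with the authors' values, which hold another of its probes. Tpm3 turned to 0.0242 with only Prep1f/+ muscles 2 and 3 kept, and ranged from -0.172 to 0.0027 on leaving out each muscle. The ranges on leaving out each muscle were -1.79 to -0.57 for Myh7, -2.62 to -1.36 for Myl2 and -0.63 to 0.05 for the pair median. The fast list median was 0.0384 with normexp and quantile normalization, 0.0419 with quantile normalization and 0.0282 with the authors' values. The regulators' median was -0.0073 with quantile normalization, 0.173 with probes averaged, 0.0859 with each probe its own row, 0.0378 with the authors' values and -0.150 to -0.0064 on leaving out each muscle. With each probe its own row, 10 probes of these genes were in the top 10% by spread, and 6 to 7 genes were on leaving out each muscle. The causes were not tested. The authors' values gave no row for Myl3, Tnni1 and Tpm3. The Pknox1 call was lost in 5 of the 18 alternatives, with a limma adjusted p of 0.00177 to 0.0738 over all of them, and its difference was -0.89 with normexp and quantile normalization. Replicate numbers follow deposit order and pair no mice, so the pairing of arrays by slide was the only one fitted.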
